A study of Mus musculus with 91 samples.

Results

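Immediate early response genes are transcribed within minutes when a cell meets a growth factor, a cytokine or a stress, without new protein synthesis. They encode transcription factors of the AP-1, EGR, NR4A and KLF families, which act on a later set of genes, and inhibitors such as dual-specificity phosphatases, SOCS3, tristetraprolin and I-kappa-B-alpha, which shut the signal down again. Their transcripts and most of their proteins are short-lived. Bone marrow stroma uses several of them: FOS and JUN family factors act in the bone-forming lineage, and stromal cells that make the chemokine CXCL12, which keeps stem cells of the blood in the marrow, respond to cytokines through the same kinases.

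The genes described here were taken as a named list of 34 immediate early response genes, of which 33 were among the 16580 genes of the count table. Fosl1 had no row. They were followed over 91 single cells from the bone marrow of C57BL/6 mice, obtained by crushing bones and index sorting, each cell sequenced as its own Smart-seq2 library (a full-length, plate-based method). All sorted cells lacked CD45, Ter119, CD41 and CD71, which mark blood and red cells, were positive for a vibrant dye used to leave out debris, and carried VCAM1, an adhesion molecule of marrow stroma. Of these, 39 were CD61+ (CD61 is the integrin beta 3 chain; 17 and 22 cells on plates 1 and 2), 40 were CD61- (24 and 16 cells on plates 1 and 2) and 9 were sorted on VCAM1 without regard to CD61. A further 3 cells, titled as CD61- cells of plate 2 but with a CD61+ gate label, were left out of every comparison of gates. The labels give no transgene, treatment or age and name no animal, so a gate counts as 1 sample and no test was run. Intervals of levels and ratios cover counting error only. Those of shares of cells treat cells as independent draws and cover no difference between animals or plates. Each plate held 1 gate, so that gate and plate cannot be told apart.

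The median cell had 2060906 counts (lowest 507713, highest 6702475) and, as deposited, 4402 genes (lowest 1185, highest 6565). Levels are CPM, a gene's counts scaled to the cell's total count, which are not divided by gene length and were therefore compared between cells and not between genes. Of the 33 genes, 17 reached 10 CPM in at least 50% of the cells: Fos, Jun, Junb, Jund, Egr1, Zfp36, Zfp36l1, Dusp1, Btg1, Btg2, Klf6, Klf9, Socs3, Gadd45b, Gadd45g, Rhob and Nfkbia. The other 16 reached that level in fewer cells. Cells were also divided by 2 genes outside the list: 60 were Cxcl12-rich (Cxcl12 at 1000 CPM or more and above Spp1), 20 were Spp1-rich (Spp1, the bone matrix protein osteopontin, at 1000 CPM or more and not below Cxcl12) and 11 were neither, and 7 cells lay within 2-fold of a limit. All 10 markers of CXCL12-abundant reticular cells had a median above 0 in the Cxcl12-rich cells, and 5 of them in the Spp1-rich cells. All 10 osteolineage markers did in the Spp1-rich cells, and 5 of them in the Cxcl12-rich cells. The lists include Cxcl12 and Spp1 themselves, for which this follows from how the classes were set. The 11 cells of neither class were mixed: the summed level ran from 0 to 10957 CPM for 8 endothelial markers, from 0 to 6028 CPM for 7 blood cell markers and from 0 to 36144 CPM for 6 fibroblast markers. In Cxcl12-rich cells the endothelial sum had a median of 0 and a highest value of 844 CPM. The endothelial cadherin Cdh5 was counted in 4 of the 11 cells and in none of the other classes, and Pecam1 in 6 of the 11, 15 of 60 Cxcl12-rich and 3 of 20 Spp1-rich cells.

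The upstream DNA of 6 of the genes is shown because these genes moved together over the cells (Fos, Jun, Junb, Dusp1) or differed between the cell classes (Dusp1, Btg2, Nfkbia), and because it holds the kinds of site through which kinase signals reach such genes. Each run is the 250 bases before the RefSeq start, 5′ to 3′ on the gene's strand, in GRCm38.p6. Capitals mark a cyclic AMP response element (TGACGTCA), its half-site (TGACG, which the full element contains), an AP-1-like site (TGACATCA) or a match to the NF-kappaB consensus. They lie at chr12:85473640-85473889 for Fos on the plus strand, and on the minus strand at chr4:95052223-95052472 for Jun, chr8:84978749-84978998 for Junb, chr17:26508473-26508722 for Dusp1, chr1:134079156-134079405 for Btg2 and chr12:55492648-55492897 for Nfkbia. In GENCODE vM21 these stretches are upstream of the gene except for Dusp1, where a longer gene model spans it.
Fos: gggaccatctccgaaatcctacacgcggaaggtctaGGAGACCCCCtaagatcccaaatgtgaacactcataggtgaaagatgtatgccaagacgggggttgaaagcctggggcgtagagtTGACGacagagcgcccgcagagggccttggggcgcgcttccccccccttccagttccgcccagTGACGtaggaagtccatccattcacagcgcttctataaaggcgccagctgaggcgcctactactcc
Jun: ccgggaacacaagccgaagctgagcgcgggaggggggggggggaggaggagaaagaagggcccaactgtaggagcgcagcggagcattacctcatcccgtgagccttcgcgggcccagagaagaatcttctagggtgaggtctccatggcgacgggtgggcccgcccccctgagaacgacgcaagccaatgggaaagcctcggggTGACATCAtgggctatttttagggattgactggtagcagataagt
Junb: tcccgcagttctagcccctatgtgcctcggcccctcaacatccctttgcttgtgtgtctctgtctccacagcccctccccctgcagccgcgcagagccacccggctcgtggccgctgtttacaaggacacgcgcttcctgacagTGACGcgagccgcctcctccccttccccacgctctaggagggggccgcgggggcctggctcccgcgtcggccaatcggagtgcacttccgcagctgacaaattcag
Dusp1: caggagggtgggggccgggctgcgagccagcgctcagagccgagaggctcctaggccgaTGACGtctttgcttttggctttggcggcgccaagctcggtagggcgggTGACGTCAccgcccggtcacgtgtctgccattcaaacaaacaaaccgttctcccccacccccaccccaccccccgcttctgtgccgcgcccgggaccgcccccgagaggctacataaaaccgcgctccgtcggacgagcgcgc
Btg2: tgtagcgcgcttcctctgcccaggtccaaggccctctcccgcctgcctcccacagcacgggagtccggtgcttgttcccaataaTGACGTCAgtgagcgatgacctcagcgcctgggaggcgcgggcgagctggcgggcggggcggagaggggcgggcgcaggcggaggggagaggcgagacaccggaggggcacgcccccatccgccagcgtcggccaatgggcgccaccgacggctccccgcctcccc
Nfkbia: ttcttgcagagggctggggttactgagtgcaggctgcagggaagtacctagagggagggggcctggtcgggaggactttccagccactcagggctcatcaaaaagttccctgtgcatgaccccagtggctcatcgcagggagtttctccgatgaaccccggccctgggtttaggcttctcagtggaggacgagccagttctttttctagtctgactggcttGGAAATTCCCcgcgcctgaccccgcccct
RefSeq promoters were at hand for 29 of the 34 genes, and both strands were searched. The half-site TGACG occurred in 13 of the 29 windows, against 17.9% of 27025 windows of all genes. The complete element TGACGTCA was present in Btg2 and Dusp1 among the members and in 1.62% of all windows, and the AP-1-like TGACATCA in Jun and Klf6, against 3.02%. A match to the NF-kappaB consensus was found in 6 member windows (Egr2, Fos, Fosb, Fosl2, Ier3 and Nfkbia) and in 7.01% of all windows. The AP-1 site TGACTCA was in none of the 29 and in 4.43% of all windows, and a CArG box, the binding sequence of serum response factor, was in Zfp36 alone, against 1.40%. These are matches of letters within the stretches searched.

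Among the AP-1 factors, which bind DNA as FOS and JUN dimers, most cells held either very little or a great deal. Fos ran from 0 to 25394 CPM with a median of 1376. It was under 10 CPM in 21 cells, between 10 and 100 CPM in 5 and over 100 CPM in 65 (71.4%, exact 95% interval 61.0 to 80.4%). Jun, its partner, ran from 0 to 7561 CPM with a median of 305, and 25, 7 and 59 cells fell into the same ranges. Junb (median 527, highest 8789 CPM) and Jund (median 446, highest 4731 CPM), the other JUN proteins, were less often missing: 11 and 10 cells lay under 10 CPM. Fosb, Fosl2 and Atf3, an AP-1-binding stress factor, were over 100 CPM in 24, 6 and 5 cells.

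The zinc finger factor Egr1 followed the same pattern as Fos and Jun, from 0 to 3419.7 CPM with a median of 217, with 26 cells under 10 CPM, 10 between and 55 over 100 CPM. Its relatives Egr2 and Egr3 were each over 100 CPM in 1 cell, and 87.9% of the summed CPM of Egr3 came from 1 CD61+ cell of plate 1 at 691 CPM. Of the NR4A orphan nuclear receptors, Nr4a1 was over 100 CPM in 23 cells, Nr4a2 in 2 and Nr4a3 in 0. Among the KLF factors, Klf6 had a median of 143 CPM and a highest value of 3044, and Klf9, which also answers to glucocorticoid and thyroid hormone, had a median of 44.7 and a highest of 987. Klf2, Klf4 and Myc, a growth regulator, were over 100 CPM in 24, 10 and 26 cells.

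The inhibitors were more unequal among themselves. Zfp36l1, which like Zfp36 binds AU-rich messages and speeds their decay, was the most evenly present: its median was 748 CPM, 2 cells were under 10 CPM and 84 were over 100. Zfp36 (tristetraprolin) had a median of 139 CPM with 23 cells under 10. Dusp1, a phosphatase that inactivates MAP kinases, had a median of 46.5 CPM, a highest value of 6296, and 42 cells under 10 CPM. Socs3, the feedback inhibitor of gp130 cytokine signalling, and Nfkbia, which holds NF-kappaB in the cytoplasm, had medians of 294 and 316 CPM, and both were over 100 CPM in 63 cells. Dusp6, a phosphatase specific for ERK, was over 100 CPM in 11 cells.

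In the last group, of growth arrest and other early genes, Gadd45g and Gadd45b, small proteins that bind stress kinases, had medians of 620.5 and 318 CPM and were over 100 CPM in 70 and 61 cells. Gadd45a, their relative, was over 100 CPM in 24. The antiproliferative proteins Btg1 and Btg2 had medians of 77.9 and 42.9 CPM; Btg1 was spread over the range, with 34 cells between 10 and 100 CPM, whereas Btg2 was under 10 CPM in 39 cells. The small GTPase gene Rhob had a median of 18.4 CPM, and Ier2, Ier3 and Ier5 were over 100 CPM in 32, 38 and 25 cells.

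A gene was said to have a low and a high group of cells when at least 20% of cells were under 10 CPM, at least 20% over 100 CPM and at most 20% between. Of the 33 genes, 16 met this, against 10.6% of the 14611 genes examined. The rule can be met only by a gene over 100 CPM in 20% of cells, and among genes that are, 57.8% met it, against 16 of 24 here. The share among the listed genes is thus near that of other genes of such levels. The 16 were Fos, Jun, Egr1, Nr4a1, Zfp36, Dusp1, Socs3, Btg2, Gadd45a, Gadd45b, Ier2, Ier3, Ier5, Klf2, Klf6 and Myc. Sarle's bimodality coefficient of log2(CPM + 1), which approaches 1 for separate groups of values, was 0.72 for Fos, 0.70 for Jun and Egr1, 0.80 for Gadd45b and 0.55 for Btg1. Counted within plates, 15 and 7 members had the pattern in CD61+ plates 1 and 2, and 11 and 14 in CD61- plates 1 and 2. The share of all genes was 10.9%, 6.06%, 13.8% and 11.5% in the same order, and so was lowest in CD61+ plate 2 as well. Among genes over 100 CPM in 20% of the plate's cells it was 57.9%, 33.4%, 63.1% and 69.1%, beside 15 of 22, 7 of 19, 11 of 22 and 14 of 22 members.

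**Figure D1:**
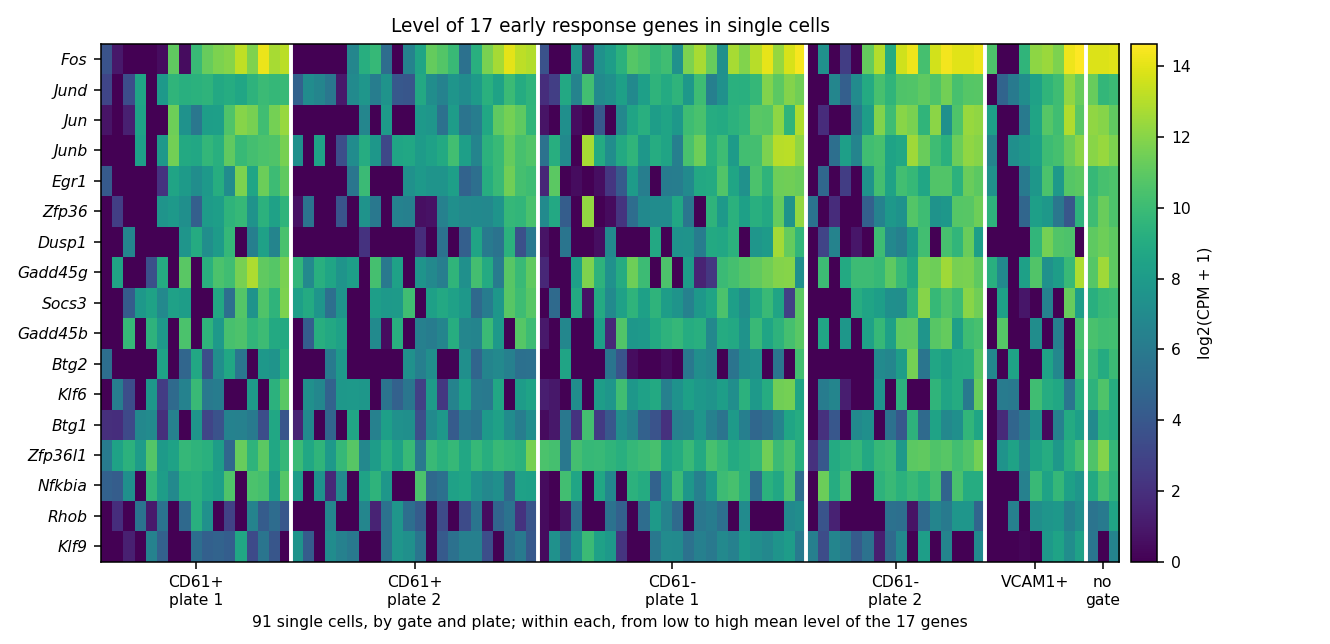
Level of the 17 early response genes (rows, log2(CPM + 1) as colour) in 91 single cells (columns), grouped by gate and plate and ordered within each by the mean level. Genes are ordered by how closely they follow the mean of the others, from Fos (Spearman rho 0.87) to Klf9 (0.12); columns that are dark for Fos are mostly dark for Jun and Egr1 too.

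The question of which members respond together was answered with Spearman correlations over the 91 cells, given as a description with no p, since the cells share plates and depth. Over the 136 pairs of the 17 genes the median rho was 0.38, and 33 pairs had a rho of 0.5 or more, against 0.159% of all pairs of genes past the same 10 CPM limit, whose median was 0.041. The highest values were among Fos, Jun, Junb, Jund and Egr1. Fos and Jun had a rho of 0.87: 55 cells had both over 100 CPM, which is 84.6% of the cells high in Fos and 93.2% of those high in Jun, and 17 cells had both under 10 CPM. Fos and Egr1 had a rho of 0.85 and Junb and Jund one of 0.81.

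The inhibitors Zfp36 and Dusp1 came next, with rho values of 0.71 and 0.66 to the mean level of the other 16 genes, against 0.87 for Fos, 0.84 for Jund and 0.83 for Jun. Of 37 cells with Dusp1 over 100 CPM, 35 had Fos over 100 CPM, while 21 cells had high Fos with Dusp1 under 10 CPM. Fos was over 100 CPM in 65 of the 91 cells (71.4%), far more than the 37 for Dusp1. Many cells high in Fos must therefore lack high Dusp1, whatever the pairing. Btg2 overlapped less with Fos: of 35 cells high in Btg2, 29 were high in both, not far above the 71.4% of all cells. Gadd45g, Gadd45b, Socs3 and Klf6 followed with rho values of 0.59, 0.54, 0.54 and 0.51. Nfkbia (0.41) and Rhob (0.37) were more loosely tied. Klf9 stood apart with 0.12, and with Jun its rho was -0.03.

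The pairing was present within plates and classes, though not to the same degree. The median rho over the 136 pairs was 0.34 and 0.19 in CD61+ plates 1 and 2, 0.25 and 0.58 in CD61- plates 1 and 2, 0.39 in Cxcl12-rich and 0.44 in Spp1-rich cells. Fos and Jun themselves kept a rho between 0.74 and 0.88 in the 4 plates. Of the less abundant members, Ier5 (0.68), Ier3 (0.63), Fosb (0.61) and Fosl2 (0.58) followed the mean of the 17 genes most closely.

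**Figure D2:**
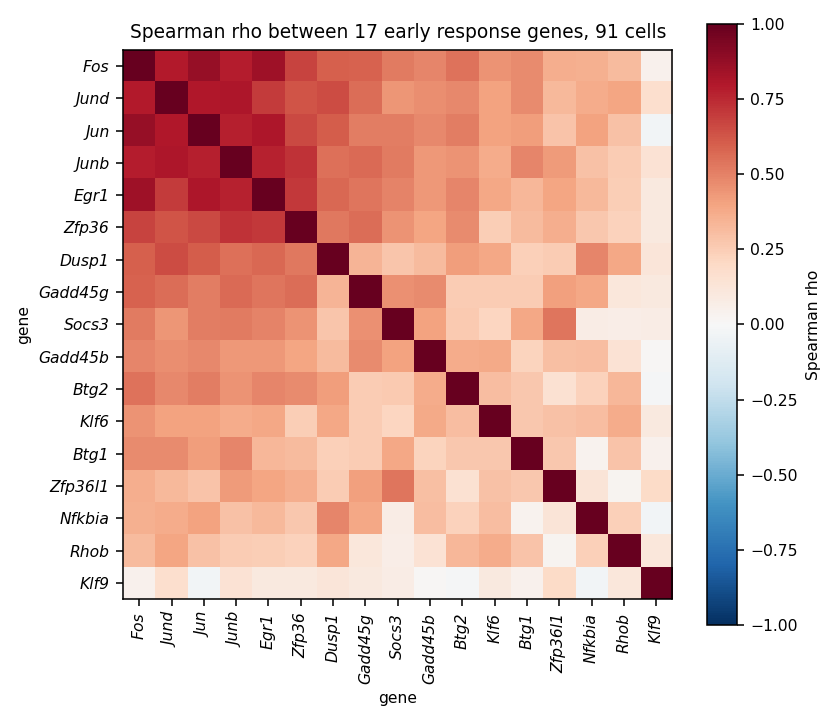
Spearman rho over 91 cells between each pair of the 17 early response genes, as colour from -1 to 1. The block of Fos, Jund, Jun, Junb and Egr1 at the upper left holds the highest values, up to 0.87, and the row of Klf9 is near 0.

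The median cell had 11 of the 17 genes over 100 CPM (lowest 0, highest 16). The counts fell into a lower and an upper range: 31 cells had 7 or fewer, 3 had 8 or 9, and 57 had 10 or more. These limits were set after the histogram was seen and only describe it. The lower range held 12 of the 22 cells of CD61+ plate 2 (54.5%, exact interval 32.2 to 75.6%), 5 of 17 on CD61+ plate 1, 5 of 24 on CD61- plate 1 and 5 of 16 on CD61- plate 2. It held 18 of the 60 Cxcl12-rich, 8 of the 20 Spp1-rich and 5 of the 11 other cells, so each class had cells in both ranges. The 3 cells with a CD61- title and a CD61+ gate label had 15, 15 and 16 genes over 100 CPM and Fos at 14615, 14651 and 16086 CPM.

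The mean level of the 17 genes (the mean of their z-scored log2(CPM + 1)) had a Spearman rho of 0.27 with genes per cell. Within plates it was 0.54 and 0.55 for CD61+ plates 1 and 2, and -0.16 and 0.78 for CD61- plates 1 and 2, so that 1 plate ran the other way. Among the 83 cells with at least 3000 genes it was 0.13. Single members were mostly weaker: 7 of 33 had a rho of 0.3 or more with genes per cell, against 12.4% of all genes examined, and none had one of -0.3 or less, against 0.0821%. Their median was 0.17, beside 0.15 for all genes. Of the 17 more abundant genes Btg2 (0.33) was the only one to reach 0.3, while Fos was at 0.18 and Jun at 0.19; Klf2 (0.38), Ier2 (0.37) and Klf4 (0.34) had the highest values.

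Over all cells the rho of the mean level was 0.44 with total counts (0.50, 0.32, 0.13 and 0.74 within the plates, in the order above) and -0.45 with the percent of counts from mitochondrial genes, the latter being below 0 within each of the 4 plates (-0.36, -0.54, -0.60 and -0.14). Among the index-sort channels, the joint Ter119 and CD41 channel gave -0.36 and CD61 gave -0.35 over all cells; within plates CD61 gave 0.09, 0.09, -0.13 and -0.48. Forward scatter gave -0.09 and VCAM1 0.10. Whether depth or mitochondrial share has a part in the differences between cells was not tested.

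**Figure D3:**
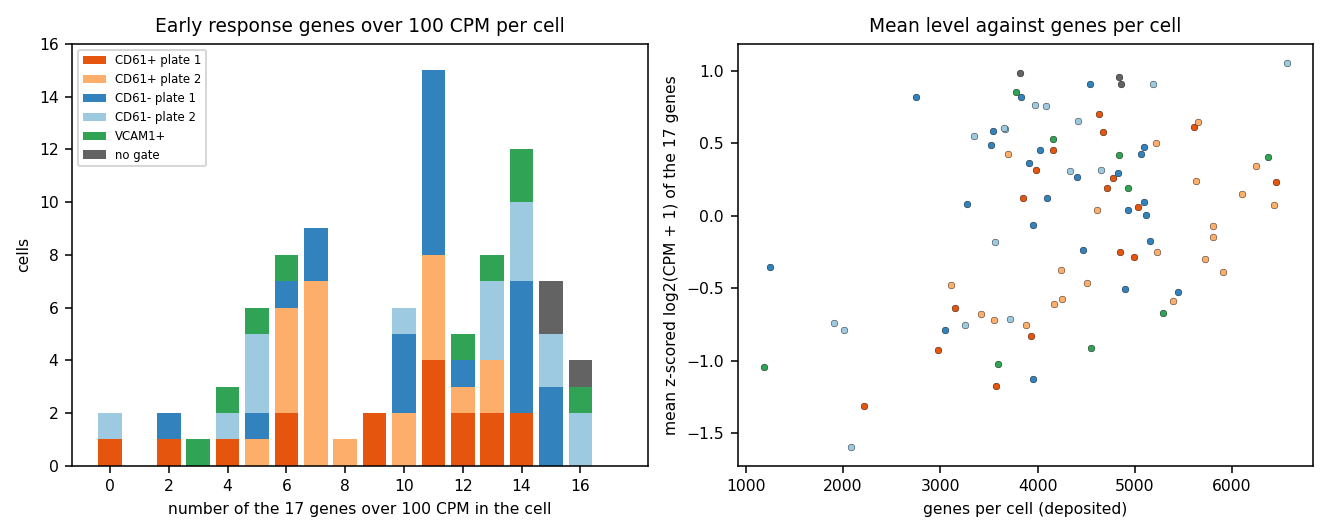
Left, number of cells (bars, stacked by gate and plate) by how many of the 17 genes are over 100 CPM; 3 cells lie at 8 or 9, between 31 below and 57 above. Right, mean z-scored log2(CPM + 1) of the 17 genes against genes per cell, 1 point per cell in the colours of the left panel; Spearman rho 0.27.

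Against CD61- cells, CD61+ cells had lower summed levels of 3 of the 7 AP-1 and ATF factors tested (Fos, Junb and Jund) and 2 of the 6 inhibitors (Dusp1 and Zfp36), and for these the difference was larger between the plates numbered 2 than between those numbered 1. A gene was called when the summed CPM differed at least 2-fold and both CD61+ plates lay on 1 side of both CD61- plates. Of the 33 members, 9 were lower in CD61+ cells (Fos, Junb, Jund, Zfp36, Dusp1, Klf6, Klf9, Ier3 and Nr4a1), against 10.6% of the 14063 genes tested, and Nr4a3 was higher, against 12.9%. The median log2 ratio was -0.64 over all members and -0.77 over the 17 more abundant, all of which were below 0, while that of all genes was 0.0084.

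Fos was at 3087 CPM in CD61+ and 6930 CPM in CD61- cells, 2.24-fold lower (counting interval 2.23 to 2.26). As each cell was left out in turn, the call of Fos was not always kept. Over cells its lowest, median and highest values were 0, 605 and 19157 CPM in the CD61+ gate and 0, 1580.2 and 21861 CPM in the CD61- gate, so that the cells of the gates overlapped over nearly the whole range. By plate, Fos summed to 4148 and 1987 CPM in CD61+ plates 1 and 2 and to 4476 and 10237 CPM in CD61- plates 1 and 2. The plates numbered 1 thus lay close together and those numbered 2 far apart. Jund was at 407 against 1092 CPM, with plates at 569 and 239 against 899.8 and 1351 CPM. Junb was at 815 against 1779.7 CPM.

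Dusp1 was the member with the largest difference among the 17, at 159 against 502 CPM (log2 ratio -1.66), with plates at 266 and 47.2 against 400.1 and 639 CPM. In CD61- plate 1 a single cell at 6296 CPM made up 50.5% of the CPM of Dusp1 added over cells. The call of Dusp1 did not hold whichever cell was left out. In CD61+ plate 2 it was over 100 CPM in 2 of 22 cells. Zfp36 was at 254 against 716 CPM (log2 ratio -1.50), with plates at 328 and 177 against 638 and 822 CPM. Its cells ran from 0 to 1382 CPM with a median of 111 in the CD61+ gate, and from 0 to 4838 CPM with a median of 180 in the CD61- gate.

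Other members were lower in total but were not called: Btg2 because its plates crossed, and Jun, Egr1, Socs3 and Gadd45b because they were under 2-fold, with plates that crossed too. Jun was at 929.7 against 1580.4 CPM, with 1479 and 359.8 CPM in the CD61+ plates and 1009 and 2349.7 CPM in the CD61- plates. Egr1 was at 539 against 786, Btg2 at 122 against 281, Socs3 at 497 against 849.8, and Gadd45b at 452 against 694 CPM, and in each of them CD61+ plate 1 was above CD61- plate 1. Klf9 had the opposite arrangement, with its gap in the plates numbered 1 (36.3 against 143 CPM) and near equal sums in those numbered 2 (57.9 against 63.1 CPM). The call of Nr4a3 rests on sums of 5.53 against 1.39 CPM, with a count of 0 in CD61- plate 1, where the limit of 3 counts corresponds to 0.0569 CPM.

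With plates of equal number set side by side, where a call is only the 2-fold limit, 1 member was lower and 5 were higher in CD61+ plate 1 (24.8% and 20.0% of genes), and 24 were lower and 0 higher in CD61+ plate 2 (18.2% and 27.7% of genes). Without CD61+ plate 2 the number of members lower in CD61+ cells was 3, with 4 higher (19.1% and 18.5% of genes), and without CD61- plate 2 it was 7, with 6 higher (19.1% and 18.6% of genes). It was 19 without CD61+ plate 1 (16.7% of genes) and 17 without CD61- plate 1 (15.0% of genes). Without either of the plates numbered 2, the counts were thus near or below the share of all genes. Leaving out each cell in turn gave between 5 and 11 lower, and of the 9 only Jund and Zfp36 were called whichever cell was left out. The 3 cells with conflicting labels, kept out of both gates, summed to 15136 CPM for Fos, 4226 for Junb, 2210 for Dusp1 and 1623 for Zfp36. These sums were above those of either gate, while Ier3 (471 CPM) and Klf9 (53.1 CPM) were below CD61- cells. Whether the calls would stand with these cells in the CD61+ gate was not tested. The median mitochondrial percent was 1.26 and 1.65 in the CD61+ plates and 1.14 and 0.912 in the CD61- plates, and the median number of members over 100 CPM was 11 and 7 against 11 and 13; the part of the former in the latter was not tested.

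**Figure D4:**
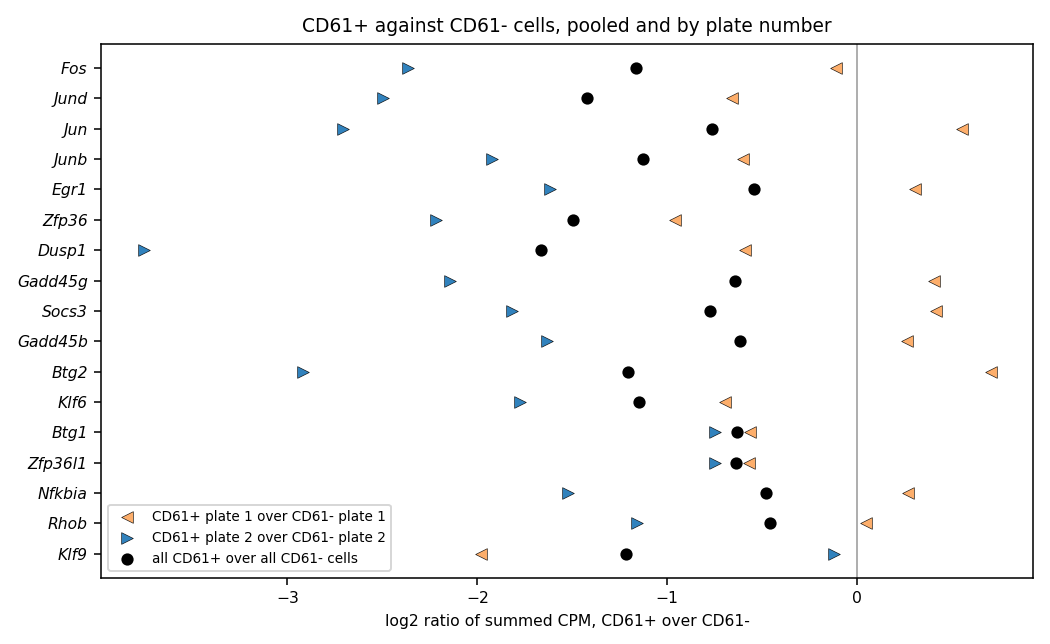
Log2 ratio of summed CPM, CD61+ over CD61-, for the 17 genes: all cells (circles), plates numbered 1 (left-pointing triangles) and plates numbered 2 (right-pointing triangles). All circles are below 0; the triangles of the plates numbered 2 run from -3.76 (Dusp1) to -0.12 (Klf9), and those numbered 1 lie on both sides of 0.

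The gates differ in cell type: Spp1-rich cells made up 15 of the 39 CD61+ and 4 of the 40 CD61- cells. Within Cxcl12-rich cells alone (21 CD61+ and 33 CD61-), 11 members were lower in CD61+ cells, against 9.79% of genes, and 1 was higher, against 14.8%. The 11 were Fos, Junb, Jund, Zfp36, Dusp1, Klf6, Ier3 and Nr4a1, as over all cells, with Btg1, Klf2 and Nr4a2, the last from sums of 0.09 against 1.39 CPM. Fos was at 3209.7 against 6957 CPM and Dusp1 at 182 against 542 CPM, close to the values over all cells. Among these cells too, CD61+ plate 2 was lowest: the median Fos level was 21.3 CPM there, against 2157 in CD61+ plate 1, 1376 in CD61- plate 1 and 4583 in CD61- plate 2. Fos was over 100 CPM in 6 of 11 and 3 of 10 Cxcl12-rich cells of CD61+ plates 1 and 2. In CD61- plates 1 and 2 it was over 100 CPM in 19 of 21 and 8 of 12.

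The 9 cells sorted on VCAM1 alone held the core as well: Fos ran from 0 to 25394 CPM with a median of 3393, and 7 of 9 were over 100 CPM. Socs3 had a median of 0.83 CPM there and was over 100 CPM in 3 cells, and Gadd45b had a median of 0. Of these 9 cells 5 were of neither class, 3 Cxcl12-rich and 1 Spp1-rich.

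**Figure D5:**
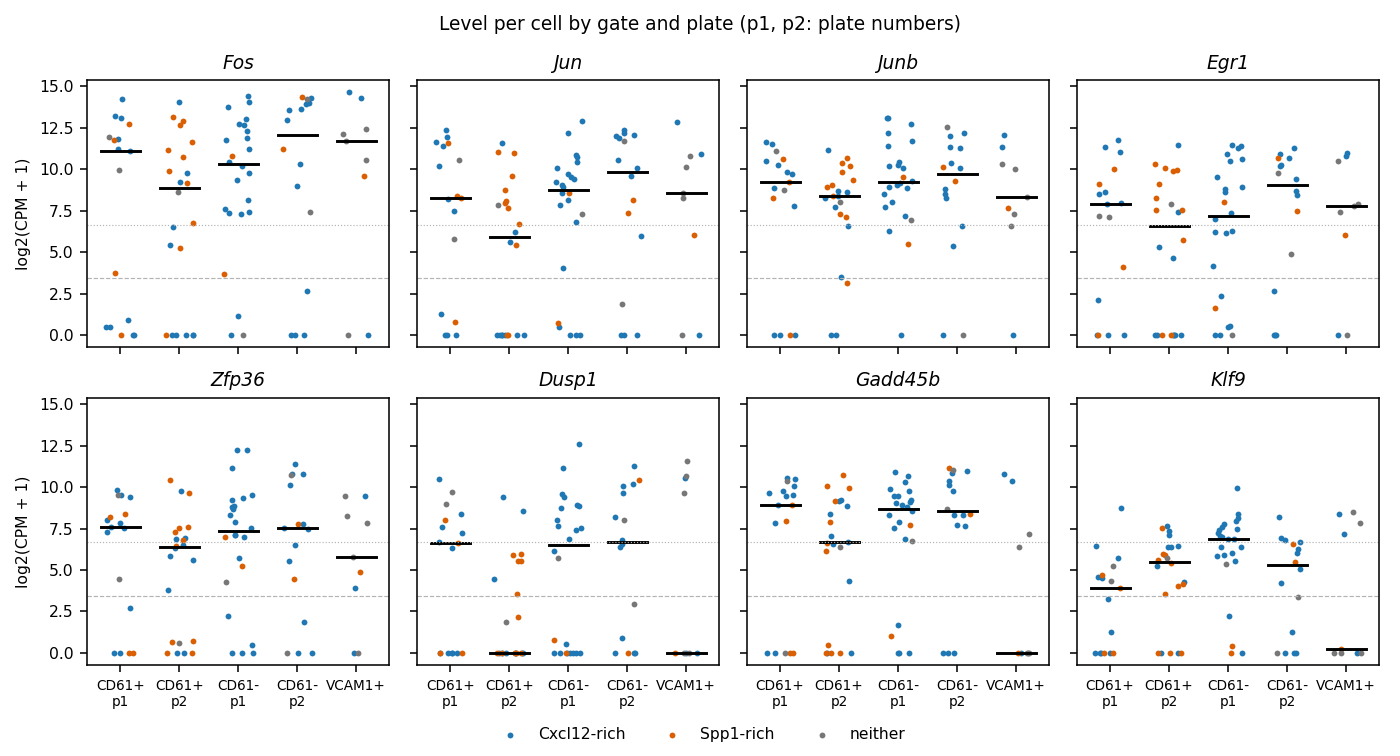
Level of 8 early response genes, log2(CPM + 1), in each cell by gate and plate; points are cells coloured by class, black bars are medians, and the dashed and dotted lines mark 10 and 100 CPM. Within each plate the cells run from 0 to high levels, and the bars of Fos and Jun are lowest in CD61+ plate 2, while that of Dusp1 is at 0 there and in the VCAM1+ gate.

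Spp1-rich cells had lower summed levels than Cxcl12-rich cells for 26 of the 33 members, beside 9732 of all 14065 genes tested. The AP-1 and EGR core did not keep that direction within plates. A gene was called when the summed CPM differed at least 2-fold and the direction was the same in CD61+ plates 1 and 2, the only plates with at least 3 cells of each class (4 and 11 Spp1-rich, 11 and 10 Cxcl12-rich). By this rule 9 members were lower in Spp1-rich cells (Dusp1, Btg2, Klf9, Rhob, Nfkbia, Fosb, Fosl2, Egr3 and Nr4a3), against 24% of 14065 genes, and 3 were higher (Nr4a2, Klf4 and Atf3), against 5.57%. The share of members that were lower was thus close to the background. The median log2 ratio was -0.93 over members and -0.63 over all genes; without the 20 most abundant genes in the totals, Spp1 among them, that of all genes was -0.44.

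Klf9 was at 27.1 CPM in Spp1-rich and 111 CPM in Cxcl12-rich cells, with medians over cells of 15.0 and 79.3 CPM. It was over 100 CPM in 1 of 20 and 23 of 60 cells. Dusp1 was at 131 against 534 CPM, with medians of 0.35 and 87.5 CPM, and over 100 CPM in 2 of 20 against 29 of 60 cells. Nfkbia was at 173 against 538 CPM, with medians of 136 and 389 CPM, and Rhob at 16.2 against 63.8 CPM. The cells of both classes overlapped for each of these genes, all of which reached 0 in some cells of either class.

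Of the genes that were higher in Spp1-rich cells, Nr4a2 was at 15.8 against 0.87 CPM and Klf4, a factor also found in endothelium, at 35.6 against 16.7 CPM. Within the plates the log2 ratio of Klf4 was 2.27 and 4.08. Atf3 was at 24.7 against 10.6 CPM and turned on single cells: its log2 ratio of 1.22 ran from -1.63 to 3.66 as each cell was left out, and that of Egr3 from -4.02 to 2.66. Nr4a2, Klf9 and Rhob were called whichever cell was left out. Without CD61+ plate 1, or without CD61- plate 1, 1 member was higher in Spp1-rich cells.

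The core turned with the plate. Over all cells Fos was at 3749 CPM in Spp1-rich and 7140.1 CPM in Cxcl12-rich cells, Jun at 582 against 1803 and Junb at 635 against 1848 CPM. The medians over cells were 1735 and 1214 CPM for Fos and 575 and 552 CPM for Junb, the other way round from the sums. Within CD61+ plate 2 the Spp1-rich cells were higher, by a log2 ratio of 1.24 for Fos, 1.27 for Jun, 0.95 for Junb and 1.20 for Egr1. In CD61+ plate 1 the same ratios were -0.33, -0.43, -0.50 and -0.71. Ier3 was higher in Spp1-rich cells of both plates (1.98 and 4.20) and at 414 against 344 CPM over all cells, which is under the 2-fold limit.

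The 11 cells of neither class, which include cells with endothelial, blood and fibroblast markers, had other members at higher sums. Atf3 was at 306 CPM there, against 24.7 in Spp1-rich and 10.6 in Cxcl12-rich cells, but its median over these cells was 2.10 CPM, and without the cell with most Atf3 counts the sum was 121 CPM. Klf2, a flow-responsive factor of endothelium, was at 298 CPM, against 66.3 and 55.7, and Klf4 at 196, against 35.6 and 16.7; without the cell with most counts of each they were at 195 and 126 CPM, a setting chosen after seeing the data. Socs3 was at 52.4 CPM and over 100 CPM in 1 of the 11 cells, against 48 of 60 Cxcl12-rich cells. Fos was at 3602 CPM, close to its level in Spp1-rich cells.

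Genes outside the list that followed the mean level of the 17 most closely were, among 1987 genes at 10 CPM or more in at least 50% of cells (median rho 0.063 without the members), chaperone genes together with other early genes. Among the 10 highest were Hspa8 (rho 0.75), Ppp1r15a (0.65), Ccn1 (0.64), Hsp90aa1 (0.63), Cebpd (0.61), Dnaja1 (0.57), Mcl1 (0.54), Dnajb1 (0.53) and Id3 (0.51). Hspa8, Hsp90aa1, Dnaja1 and Dnajb1 encode heat shock proteins, Ppp1r15a a stress-induced phosphatase subunit and Ccn1 a secreted matrix protein. Hspa8 was over 100 CPM in 89 of 91 cells, so that it varied in level more than in presence. It had a rho between 0.55 and 0.86 in the 4 plates. Ppp1r15a, Dnaja1 and Mcl1 were lower in 1 plate, with 0.11, 0.18 and 0.20 in CD61+ plate 2, and Id3 was at -0.01 there.

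Upstream components of the pathway were mostly less abundant. Of 23 kinases and factors listed, such as ERK, JNK, SRF and CREB, 3 reached 10 CPM in 50% of cells, and the rho with the mean level was 0.03 for Map2k2 and 0.02 for Stat3. Between the gates, 3 of the 21 tested were lower in CD61+ cells (Elk1, Creb1 and Mapk8; 10.6% of all genes) and 0 higher, and between the classes 5 of 20 were lower in Spp1-rich cells (Mrtfa, Mrtfb, Elk1, Elk3 and Nfkb1; 24% of all genes) and 0 higher, shares near those of all genes. Of 25 further early response genes, 5 were lower in CD61+ cells, against 10.6% of all genes. Among them were Ccn1, at 869 against 3498 CPM, and Irf1, at 123 against 319 CPM. Id1 alone was higher, at 225 against 53.2 CPM, where 12.9% of all genes were. Between the classes 10 of the 25 were lower in Spp1-rich cells, against 24% of all genes, such as Sgk1 at 5.90 against 141 CPM. Bhlhe40 and Hbegf were higher, against 5.57% of all genes. The log2 ratio of Hbegf, 1.48, ran from 0.37 to 2.83 as each cell was left out.

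Targets of NF-kappaB, whose inhibitor is Nfkbia, were mostly lower in Spp1-rich cells. Of 8 tested, 6 were called lower, against 24% of all genes, and 0 higher. Their median log2 ratio was -4.11, beside -0.63 for all genes. Icam1 was at 4.16 against 143 CPM and Nfkb2 at 2.29 against 22.7 CPM. Between the gates, the chemokine genes Ccl2 (41.3 against 279.6 CPM) and Ccl7 (2.93 against 193 CPM) were lower in CD61+ cells, 2 of 9 tested, against 10.6% of all genes. Single cells carried much of these sums: as each cell was left out, the log2 ratio ran from -9.64 to -2.46 for Ccl2 and from -12.23 to -4.65 for Ccl7. Of 10 heat shock genes, Hspb1 and Dnajb1 were lower in CD61+ cells, against 10.6% of all genes, and 0 higher. The log2 ratio of Hspb1, -1.60, ran from -2.12 to -0.94 as each cell was left out. Between the classes Hspb1 alone of the 10 was lower in Spp1-rich cells, against 24% of all genes. Hspa1a, whose reads can be shared with its near-identical neighbour Hspa1b, was the only one higher, against 5.57%.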

How the data were processed

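The deposited table holds estimated counts (expected counts) of reads per gene and cell, made by the authors with kallisto 0.43.0 and R 3.5.1 on mm10, per the submitters' processing notes; the sources used here do not give the annotation. All its values are whole numbers. A deposited table of values per cell gives the total count and the number of genes, which equals the genes with at least 4 counts, and index-sort intensities on a linear scale from the authors; 36 of its columns were not used.

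The members and lists were chosen with earlier results of these data known. Every member with a row is reported, in full where it reached 10 CPM in 50% of cells; other genes were named from the 10 with the highest Spearman rho to the mean member level, of which not all are reported here, without mitochondrial, ribosomal, predicted and Rik genes, and from the other lists the genes called, up to 4 each. No cell was removed and no doublet caller was run. Counts were summed per gate, plate or class and divided by the summed totals. Genes entered with at least 10 counts and a count in 5 cells. Ratios used a floor of 3 counts per sum. The 95% intervals of sums and ratios (exact Poisson, exact binomial split) cover counting error only, and Smart-seq2 reads are not independent molecules. Those of shares of cells (95%, Clopper-Pearson) treat each cell as an independent draw. The steps were tested on simulated data. Alternatives used TMM (edgeR 4.0.16), size factors (DESeq2 1.42.0, R 4.3.3), thinning to 500000 counts, a pseudocount of 10 in place of 1, and others given with the limits. Other tools were scipy 1.17.1, pandas 2.3.3 and numpy 2.4.6 under Python 3.11.15, with matplotlib 3.10.9 for figures.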

Additional observations from a re-analysis of the deposited data

Results flagged for a closer look

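Among the 9 cells of the VCAM1+ gate, 34 sets of values were examined for a cell set apart from the others, and 8 had one. A chance rate of about 1 in 20 does not hold for genes at 0 in most cells, so the 8 cannot be set against it. Egr3 and Nr4a3 were at 0 in 8 of the 9 cells, where the remaining cell is flagged whatever its level. The lowest cell was apart for Junb, Zfp36l1 and Gadd45g, each with a log2(CPM + 1) of 0 in 1 cell. The highest cell was apart for Egr3 (1.13), Nr4a2 (5.69), Nr4a3 (4.31), Dusp6 (3.67) and Gadd45a (7.92), and the gap to the next cell was smallest for Gadd45a, at 0.504 of the range.

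For Jun, the mean difference in log2(CPM + 1) between Spp1-rich and Cxcl12-rich cells was 0.49 and 4.59 in the CD61+ plates and -2.91 and -0.31 in the CD61- plates, so that on this scale the gates went opposite ways, by 4.15 between their means. By summed CPM the log2 ratio was -0.43 in CD61+ plate 1, of the other sign than the mean of logs, and 1.27 in CD61+ plate 2. The difference was not tested, and the CD61- plates held 2 Spp1-rich cells each.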

How the results depend on the processing

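With no animal named and plates that each hold 1 gate, the limits lie in the number of plates. No paired analysis was possible because no model was fitted and no result comes from a test; plates of equal number, not said to share an animal or day, are only set side by side. The count of members lower in CD61+ cells (9) was between 6 and 11 under the scalings, filters and cell subsets tried; it ranged from 3 to 19 as each plate and from 5 to 11 as each cell was left out. The count of members higher (1) was 0 with the mean CPM over cells, 0 to 6 as each plate and 0 to 2 as each cell was left out. No alternative placed the 3 cells with conflicting labels in a gate. As alternatives chosen after seeing the data, plates numbered 1 alone gave 1 lower and 5 higher, and plates numbered 2 alone 24 lower and 0 higher. The count lower in Spp1-rich cells (9) was 5 with classes set by marker means and 9 to 13 as each plate was left out; the count higher (3) was then 1 to 4. Leaving out each cell gave 6 to 10 lower and 2 to 4 higher. For the class ratio, Egr3 (-2.26) turned to 6.08 with marker means. As each plate, or the cells with conflicting labels, were left out, Egr3 ran from -4.31 to 2.88 and Atf3 (1.22) from -2.36 to 3.60. The rho of the mean level with genes per cell turned to -0.16 within CD61- plate 1 and was 0.78 within CD61- plate 2; the cause was not tested. The number of members with a low and a high group of cells (13 to 17) and the median rho between members (0.25 to 0.39) moved less than the limits set for a change. Of 616 values of single genes under an alternative, 573 stayed within 1 SD over plates, 40 moved further, and 3, of genes called, changed sign. A further 11, of genes not called, also changed sign while counted among those that moved or stayed, 8 of them with plates numbered 1 alone. The SD is that of the log2 ratios between plates, so it was wide where plates disagreed (between the gates 1.53 for Btg2 and 4.83 for Nr4a3). Btg2 (-1.21) thus counted as staying at 0.20 without CD61- plate 2, and staying within the SD does not show a stable value. At the lowest total of 507713 counts, 10 CPM corresponds to 5.08 counts.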
